A study of Mus musculus with 19 samples.

Results

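The circadian clock genes described here are the 10 genes Per1, Per2, Per3, Cry1, Cry2, Dbp, Tef, Nr1d1, Nr1d2 and Ciart. They were taken by name from a table of 36682 genes, and all 10 passed the filter on low counts that left 22778 genes for testing. The samples were L3 to L5 dorsal root ganglia, which house the cell bodies of sensory neurons, of 19 male mice. Ganglia of 1 side were pooled for each animal, in DMM mice the side that had surgery. All mice, controls included, were homozygous for MaFIA, a transgene in which the Csf1r promoter drives a Fas-based suicide receptor in macrophages and other myeloid cells. The drug AP20187 joins copies of that receptor and so triggers death of the cells that carry it. The groups were DMM with AP20187 (mice 58 to 62, n = 5), DMM with vehicle (mice 32, 33, 34, 63 and 64, n = 5), naive with AP20187 (mice 1, 3, 4 and 5, n = 4) and naive with vehicle (mice 1 to 5, n = 5). DMM is surgery that destabilizes the medial meniscus of the knee and leads to osteoarthritis. Injections into the peritoneal cavity were given daily for 5 days, and in DMM mice they came 8 weeks after surgery. Naive mice were matched in age, and neither that age nor the hour of tissue collection is given in the sources used here.

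The mammalian clock is a loop of transcription. CLOCK and BMAL1 bind E-box sequences and switch on the Per, Cry, Nr1d, Ciart, Dbp and Tef genes. PER and CRY proteins then block CLOCK and BMAL1, and the REV-ERB proteins encoded by Nr1d1 and Nr1d2 repress Arntl, the gene of BMAL1. Transcripts of Dbp, Nr1d1 and the Per genes swing strongly over the day in most peripheral tissues, so that levels in tissue taken at different hours differ.

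Library totals ran from 60984830 to 74691396 counts. Levels are given in CPM, counts scaled to library size with TMM factors, and the smallest count of any clock gene in a library was 77, for Ciart. Sensory neuron markers were present in all 19 libraries, with a summed level of 1052 to 9523 CPM over 7 genes. In bulk tissue, fewer cells of a type and less RNA per cell cannot be told apart.

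In the deposited GRCm39 coordinates, Per1 lies at chr11:68986043-69000786 and Tef at chr15:81686622-81711064. Dbp lies at chr7:45354512-45359627 and Nr1d2 at chr14:4230569-4265642. These 4 genes are on the plus strand. The others are on the minus strand: Per2 at chr1:91343704-91387046, Per3 at chr4:151088109-151129122, Cry1 at chr10:84967564-85020928, Cry2 at chr2:92233991-92264388, Nr1d1 at chr11:98658758-98666159 and Ciart at chr3:95785815-95789543. Identifiers are ENSMUSG00000020893 for Per1, ENSMUSG00000020038 for Cry1, ENSMUSG00000059824 for Dbp, ENSMUSG00000022389 for Tef and ENSMUSG00000038550 for Ciart.

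The 250 bases before the transcription start were read for 9 of the 10 genes (all but Per2), in 11 windows, from RefSeq on GRCm38.p6, a different build from that of the deposited table. Each was searched on both strands for the E-box CACGTG, the related CACGTT, the D-box TTANGTAA to which DBP and TEF bind, the REV-ERB and ROR core TAGGTCA, and the cAMP response element TGACGTCA. The E-box occurred in windows of 4 genes (Per1, Cry1, Tef and Ciart), against 6.02% of all 32851 windows of the same length. A gene counts here if any of its windows matched, and Per1 and Tef have 2 windows each. The shares are per window, so the measures differ. CACGTT occurred in 3 genes (Cry1, Cry2 and Nr1d1), against 3.85% of windows, and the D-box in 1 (Per3), against 2.06%. The core TAGGTCA and the cAMP response element were found in none of the 9 genes, against 2.23% and 1.55% of windows. A match is a description of letters and not a site shown to be bound. For the windows of Cry2 and Nr1d1, the bases just after the start were not found in an annotated transcript of the gene. For the other windows they were. The 4 windows below are shown because they hold the matched elements in 3 genes whose levels changed with AP20187, in opposite directions, and in 1 that did not pass the test. Capitals mark the matches.
Ciart, chr3:95882229-95882478, minus strand: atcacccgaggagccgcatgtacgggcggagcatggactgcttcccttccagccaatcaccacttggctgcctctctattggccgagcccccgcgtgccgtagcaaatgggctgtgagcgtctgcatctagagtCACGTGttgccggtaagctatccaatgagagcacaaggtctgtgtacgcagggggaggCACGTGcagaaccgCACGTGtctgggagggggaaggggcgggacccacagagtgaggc
Cry1, chr10:85185055-85185304, minus strand: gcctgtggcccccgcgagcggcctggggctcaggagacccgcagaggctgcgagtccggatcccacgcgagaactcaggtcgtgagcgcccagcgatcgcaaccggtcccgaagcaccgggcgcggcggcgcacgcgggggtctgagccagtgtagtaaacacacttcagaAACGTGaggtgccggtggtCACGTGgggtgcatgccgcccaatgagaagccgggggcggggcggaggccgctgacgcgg
Tef, chr15:81811164-81811413, plus strand: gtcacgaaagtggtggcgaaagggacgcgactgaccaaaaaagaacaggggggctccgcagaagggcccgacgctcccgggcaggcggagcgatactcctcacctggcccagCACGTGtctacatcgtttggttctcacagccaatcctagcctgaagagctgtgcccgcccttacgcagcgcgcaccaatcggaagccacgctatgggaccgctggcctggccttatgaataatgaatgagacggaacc
Per3, chr4:151044666-151044915, minus strand: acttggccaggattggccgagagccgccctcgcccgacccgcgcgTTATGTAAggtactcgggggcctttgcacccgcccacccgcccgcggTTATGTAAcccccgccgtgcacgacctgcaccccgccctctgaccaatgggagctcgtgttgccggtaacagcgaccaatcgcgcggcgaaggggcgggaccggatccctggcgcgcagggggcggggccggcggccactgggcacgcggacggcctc
The 3 E-boxes of Ciart lie 39 to 44, 53 to 58 and 111 to 116 bases before its start. In Cry1 an E-box lies 55 to 60 bases and the related element, read as AACGTG on this strand, 74 to 79 bases before the start. The 2 D-boxes of Per3 lie 151 to 158 and 198 to 205 bases before its start.

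In mice with DMM, Dbp, Tef, the REV-ERB genes Nr1d1 and Nr1d2, Cry2 and Ciart were lower with AP20187 than with vehicle, and Cry1 was higher. Dbp, Ciart, Nr1d1 and Cry2 were 2.65-fold, 2.50-fold, 2.17-fold and 2.11-fold lower. Tef and Nr1d2 were 1.54-fold and 1.43-fold lower, and Cry1 was 1.69-fold higher. By edgeR's quasi-likelihood test with Benjamini-Hochberg adjustment over all genes, 7 of the 10 passed the threshold of 0.05, 1 higher and 6 lower. Over all tested genes 23.8% passed, 11.3% higher and 12.4% lower. The groups did not overlap for 3 of the 10 (Cry1 higher, Nr1d1 and Tef lower), against 12.9% of all genes. The median log2 fold change of the 10 was -0.57, and that of all genes was -0.10.

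**Figure D1:**
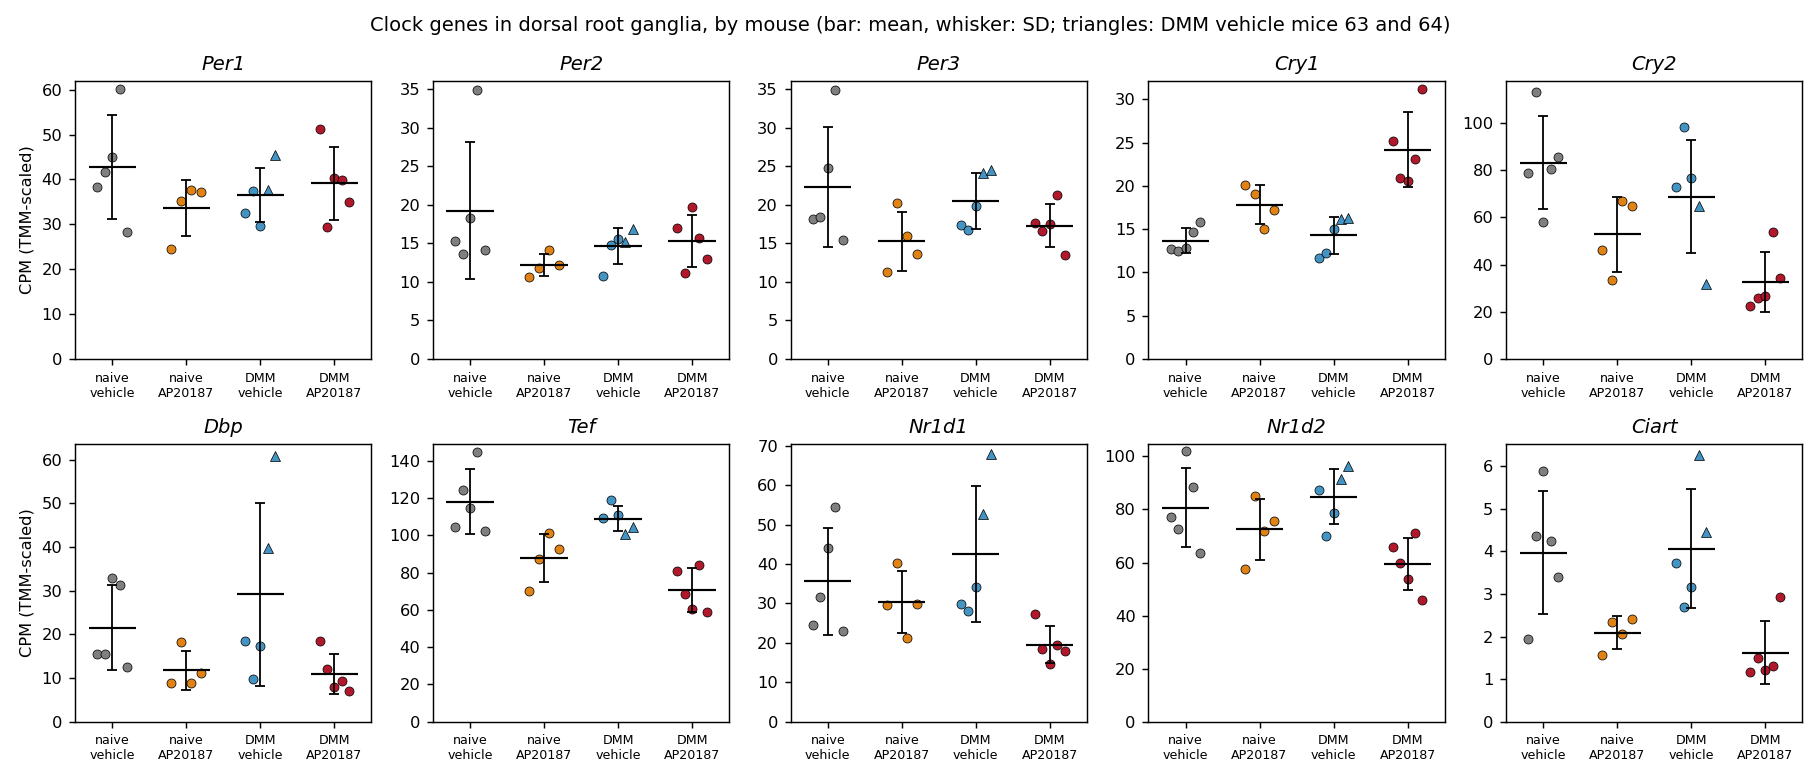
Level of each clock gene in CPM (vertical axes, from 0) in the 19 mice by group, with each point a mouse, the bar the group mean and the whisker the SD. Triangles are DMM vehicle mice 63 and 64, which hold the highest Dbp and Nr1d1 levels of their group, and the 5 DMM AP20187 mice lie above all DMM vehicle mice for Cry1 and below them for Tef and Nr1d1.

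Dbp and Tef encode related bZIP activators that carry the clock's rhythm to other genes through D-boxes. Dbp was at 18.5, 12.2, 8.00, 9.38 and 7.12 CPM in DMM mice 58 to 62 with AP20187. With vehicle it was at 18.4, 9.76 and 17.3 CPM in mice 32, 33 and 34, and at 39.7 and 61.0 CPM in mice 63 and 64. The groups overlapped, and the high level with vehicle came from mice 63 and 64. On the log2 scale Dbp fell by 1.41 (SE 0.433, adjusted p 0.0267 by edgeR). It no longer passed without AP20187 mouse 60 (-1.31, adjusted p 0.0627) or 62 (-1.28, adjusted p 0.0637), or without vehicle mouse 63 (-1.27, adjusted p 0.0556) or 64 (-0.95, adjusted p 0.0712). Dbp shares 737 bases with Sphk2 on the opposite strand, and whether the counting used strand is not given in the sources used here. Sphk2 was at a mean of 33.5 CPM with AP20187 and 32.8 CPM with vehicle in DMM (log2 fold change 0.03, adjusted p 0.929 by edgeR). Tef was at 80.8, 68.6, 60.3, 84.2 and 58.6 CPM in mice 58 to 62 and at 109.5, 119, 111, 101 and 105 CPM in mice 32, 33, 34, 63 and 64. Every AP20187 mouse was below every vehicle mouse, and the vehicle mice lay close together. Tef fell by 0.63 log2 (SE 0.141, adjusted p 0.00529 by edgeR).

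Nr1d1 and Nr1d2 encode REV-ERB alpha and beta, nuclear receptors that repress transcription. Nr1d1 was at 27.3, 18.4, 14.7, 19.6 and 18.0 CPM in DMM mice 58 to 62 with AP20187 and at 29.9, 28.1, 34.1, 52.6 and 67.9 CPM in vehicle mice 32, 33, 34, 63 and 64. The groups did not overlap, and mice 63 and 64 stood above the other vehicle mice as they did for Dbp. Nr1d1 fell by 1.12 log2 (SE 0.283, adjusted p 0.01 by edgeR). Nr1d2 was at 65.9, 59.9, 53.9, 71.1 and 46.0 CPM with AP20187 and at 87.2, 70.1, 78.8, 91.5 and 96.3 CPM with vehicle, in the same order of mice. Its groups overlapped by a narrow margin, between mouse 61 and mouse 33. Nr1d2 fell by 0.51 log2 (SE 0.157, adjusted p 0.0261 by edgeR), a call lost without AP20187 mouse 60 (-0.48, adjusted p 0.0603) or 62 (-0.44, adjusted p 0.0657) or vehicle mouse 32 (-0.49, adjusted p 0.0618).

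Cry1 and Cry2 encode the cryptochromes, the main repressors of CLOCK and BMAL1, and they moved in opposite directions. Cry1 was at 25.2, 20.9, 20.5, 23.1 and 31.1 CPM in DMM mice 58 to 62 with AP20187 and at 11.7, 12.3, 15.04, 16.2 and 16.3 CPM in vehicle mice 32, 33, 34, 63 and 64. Every AP20187 mouse lay above every vehicle mouse. Cry1 rose by 0.76 log2 (SE 0.149, adjusted p 0.00237 by edgeR). Cry2 was at 22.5, 25.7, 26.9, 53.8 and 34.3 CPM with AP20187 and at 72.6, 98.0, 76.7, 64.7 and 31.8 CPM with vehicle. The groups overlapped because vehicle mouse 64 lay below AP20187 mice 61 and 62. Cry2 fell by 1.07 log2 (SE 0.288, adjusted p 0.0138 by edgeR). Cry2 shares 23417 bases of its span with D930015M05Rik on the opposite strand, which was at means of 0.581 and 0.375 CPM with AP20187 and vehicle.

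Ciart encodes a repressor that acts on CLOCK and BMAL1, and it was the least abundant of the 10. It was at 1.17, 1.51, 1.21, 1.30 and 2.94 CPM in DMM mice 58 to 62 with AP20187 and at 3.72, 2.70, 3.16, 6.26 and 4.46 CPM in vehicle mice 32, 33, 34, 63 and 64. Only AP20187 mouse 62 reached into the vehicle range. Ciart fell by 1.32 log2 (SE 0.326, adjusted p 0.00867 by edgeR). Ciart lies wholly inside the span of C920021L13Rik on the opposite strand, with the same limit as for Dbp. C920021L13Rik had a log2 fold change of 0.18 in the same comparison (adjusted p 0.692 by edgeR).

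The 3 Per genes, whose proteins hold CRY in the repressive complex, did not pass in DMM. Per1 ranged from 29.3 to 51.3 CPM with AP20187 and from 29.7 to 45.4 CPM with vehicle, and the log2 fold change was 0.10 (SE 0.194). Per2 ranged from 11.2 to 19.7 CPM with AP20187 and from 10.8 to 16.9 CPM with vehicle, and the log2 fold change was 0.06 (SE 0.233). Per3 ranged from 13.5 to 21.3 CPM and from 16.8 to 24.5 CPM, with a log2 fold change of -0.25 (SE 0.215). The adjusted p of these 3 genes by edgeR were 0.76, 0.876 and 0.443. The whole span of Per3 lies within Camta1 on the same strand, so reads of the 2 genes are separated by exon alone. Camta1 was at a mean of 75.5 CPM with AP20187 and 213 CPM with vehicle in DMM (log2 fold change -1.49, adjusted p 0.0317 by edgeR). Its part in the Per3 values was not tested.

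In naive mice, the clock genes had the same signs as in DMM for all but Per1 and Per2, but none passed the threshold with AP20187. By edgeR 0 of the 10 passed and 6 had an unadjusted p under 0.05 (Per2, Per3, Cry1, Cry2, Tef and Ciart), while 11.2% of all genes passed and 28.8% had such an unadjusted p. DESeq2 called 3 of the 10 (Tef, Ciart and Per2). The share of all genes that DESeq2 called is not given here. Over the alternatives 1793 to 4367 genes were called in naive mice, against 2548 in the main edgeR fit. The median log2 fold change of the 10 was -0.49, and that of all genes was -0.07.

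Tef had the smallest adjusted p in naive mice. It was at 70.1, 87.4, 101 and 92.5 CPM in naive AP20187 mice 1, 3, 4 and 5 and at 105, 124, 114, 145 and 102 CPM in vehicle mice 1 to 5. The groups did not overlap, as in 15.5% of all genes, though mouse 4 with AP20187 and mouse 5 with vehicle were nearly equal. Its log2 fold change was -0.43 (SE 0.151, adjusted p 0.0727 by edgeR). Ciart was at 1.56, 2.33, 2.07 and 2.41 CPM with AP20187 and at 1.94, 4.35, 5.88, 4.24 and 3.39 CPM with vehicle. Vehicle mouse 1 lay inside the AP20187 range. The log2 fold change of Ciart was -0.92 (SE 0.346, adjusted p 0.0904 by edgeR).

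Cry1 in naive mice was at 20.1, 19.02, 15.1 and 17.2 CPM with AP20187 and at 12.7, 12.4, 12.8, 14.6 and 15.8 CPM with vehicle. Only vehicle mouse 5 lay above the lowest AP20187 mouse. Cry1 differed by 0.38 log2 (SE 0.157, adjusted p 0.117 by edgeR). Cry2 was at 46.1, 33.4, 66.7 and 64.9 CPM with AP20187 and at 78.8, 113, 58.1, 80.2 and 85.7 CPM with vehicle. Its overlap came from vehicle mouse 3, the lowest of its group. Cry2 differed by -0.66 log2 (SE 0.306, adjusted p 0.165 by edgeR).

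Dbp in naive mice was at 8.98, 18.3, 8.89 and 11.1 CPM with AP20187 and at 15.5, 15.5, 32.8, 31.4 and 12.6 CPM with vehicle. Vehicle mice 3 and 4 stood well above the other 3, and AP20187 mouse 3 stood above the rest of its group. The log2 fold change of Dbp was -0.87 (SE 0.459, adjusted p 0.216 by edgeR). Nr1d1 was at 29.7, 40.4, 21.1 and 29.8 CPM with AP20187 and at 24.4, 31.7, 44.1, 54.6 and 23.1 CPM with vehicle. The groups overlapped widely, and the same mice as for Dbp were high. Nr1d1 and Nr1d2 had log2 fold changes of -0.23 (SE 0.298) and -0.15 (SE 0.167), the latter with levels of 57.5 to 85.2 CPM against 63.5 to 102 CPM. Per1, Per2 and Per3 had log2 fold changes of -0.34 (SE 0.207), -0.66 (SE 0.251) and -0.55 (SE 0.231). All 3 Per genes were highest in vehicle mouse 4, at 60.1 CPM for Per1 and 34.8 CPM for both Per2 and Per3. Without that mouse their log2 fold changes were -0.19, -0.33 and -0.33, and that of Nr1d1 was -0.03, with adjusted p of 0.24 or more by edgeR.

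**Figure D2:**
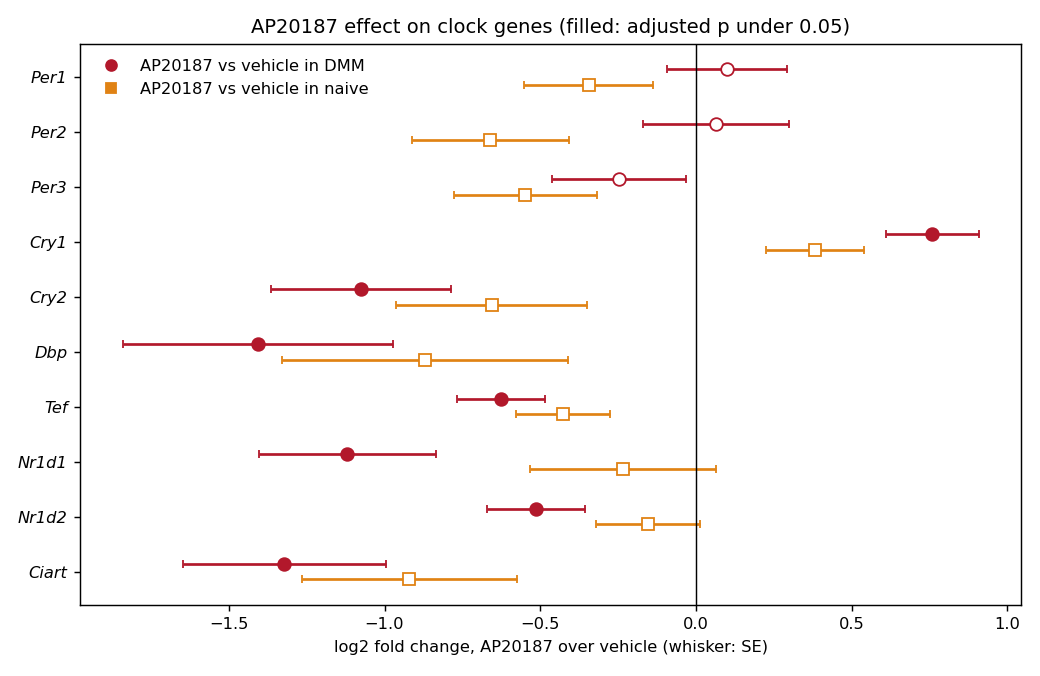
Log2 fold change with AP20187 over vehicle (horizontal axis) of the 10 clock genes in DMM (circles) and naive mice (squares), with whiskers of 1 SE and filled symbols for an adjusted p under 0.05. The 7 filled symbols all belong to DMM, and Cry1 lies above 0 and Cry2, Dbp, Tef, Nr1d1, Nr1d2 and Ciart below 0 in both.

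Whether the AP20187 effect differed between DMM and naive mice was tested as an interaction, the effect in DMM minus that in naive mice. By edgeR 0 of the 10 clock genes passed, against 0.114% of all genes, and 2 had an unadjusted p under 0.05, against 7.67% of all genes. These were Nr1d1, with an interaction of -0.89 log2 (SE 0.407, unadjusted p 0.0428), and Per2, with 0.72 log2 (SE 0.342, unadjusted p 0.0476). The smallest adjusted p among the 10 was 0.632, and DESeq2 called 0. A pass in DMM and none in naive mice is therefore not shown to be a difference between them.

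Surgery alone was compared between DMM and naive mice given vehicle. By edgeR 0 of the 10 clock genes passed and 0 had an unadjusted p under 0.05, against 0.0% of all genes passing and 1.66% with such an unadjusted p, and DESeq2 called 0 of the 10. Log2 fold changes ran from -0.40 for Per2 (SE 0.234) to 0.44 for Dbp (SE 0.425). The direction of Dbp turned with the vehicle mice used, at 1.26 (adjusted p 0.0812 by edgeR) with DMM mice 63 and 64 only and -0.51 with mice 32 to 34 only. Dbp, at means of 29.2 CPM in DMM and 21.6 CPM in naive mice, had an SD of 20.9 and 9.69 CPM (n = 5 each). Cry1, with SDs of 2.16 and 1.45 CPM, differed by 0.06 log2 (SE 0.149). Between DMM and naive mice given AP20187, 0 of the 10 passed by edgeR or DESeq2 and 4 had an unadjusted p under 0.05 (Cry1, Cry2, Tef and Nr1d1), against 0.702% and 16.7% of all genes. Cry1 was higher in all 5 DMM mice than in all 4 naive mice, by 0.44 log2 (SE 0.159, adjusted p 0.18 by edgeR), and 5.9% of all genes did not overlap in that comparison. All comparisons that use the same group share its mice, so their values are not independent of each other.

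The DMM vehicle mice carry numbers of separate series, 32 to 34 and 63 to 64, and the labels do not say what a number means. Mice 63 and 64 were the highest of their group for Dbp, Nr1d1, Nr1d2, Per1, Per3, Cry1 and Ciart, and mouse 64 alone was the highest for 7 of the 10 clock genes. Against mice 63 and 64 only, edgeR called 3 clock genes, and 4.73% of 24459 tested genes: Dbp (log2 fold change -2.17, adjusted p 0.0104), Nr1d1 (-1.60, adjusted p 0.0112) and Ciart (-1.70, adjusted p 0.022). The calls of Cry1 (0.59, adjusted p 0.0849), Tef (-0.52, adjusted p 0.135), Nr1d2 (-0.64, adjusted p 0.0892) and Cry2 (-0.53, adjusted p 0.417) were lost there. Against mice 32 to 34 only, it called 4, and 36.3% of 23283 genes: Cry1 (0.89, adjusted p 0.00133), Cry2 (-1.34, adjusted p 0.00229), Tef (-0.68, adjusted p 0.00488) and Ciart (-0.98, adjusted p 0.037). Dbp was then at -0.46 (adjusted p 0.369), Nr1d1 at -0.65 (adjusted p 0.0693) and Nr1d2 at -0.41 (adjusted p 0.0846). Ciart was the 1 gene called against each set, and the 7 called genes kept their direction against each. Without mouse 64 alone, Dbp was at -0.95 (adjusted p 0.0712 by edgeR).

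**Figure D3:**
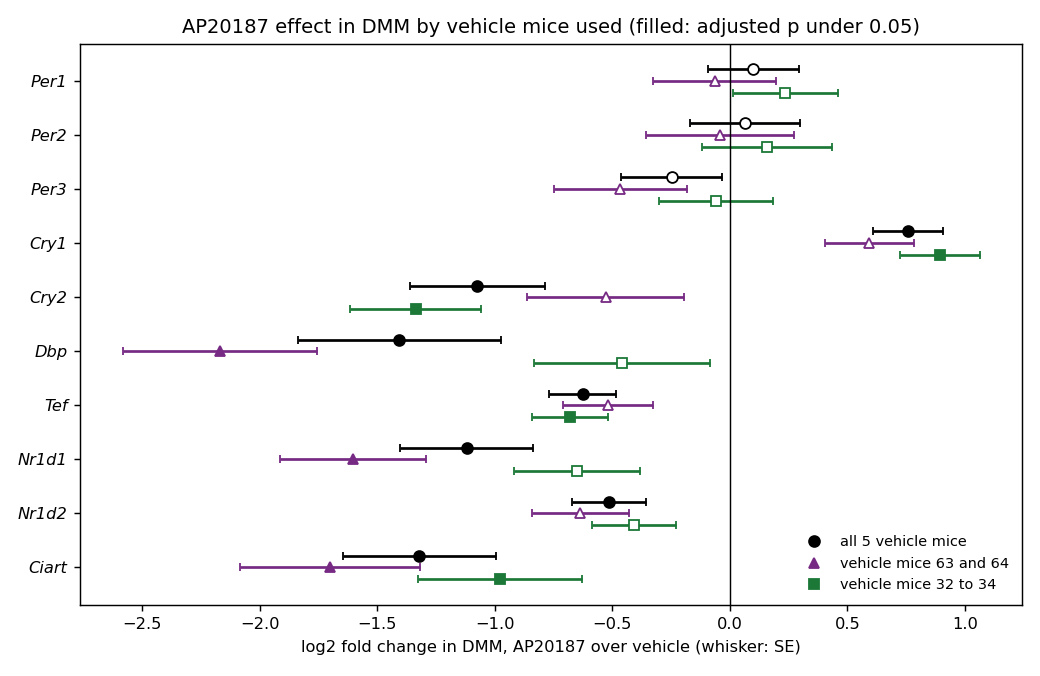
Log2 fold change with AP20187 over vehicle in DMM (horizontal axis, whiskers of 1 SE) against all 5 vehicle mice, mice 63 and 64, or mice 32 to 34, filled where the adjusted p was under 0.05. Dbp moves from -2.17 against mice 63 and 64 to -0.46 against mice 32 to 34, while Tef stays between -0.52 and -0.68.

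Regulators outside the 10 were followed in 5 lists of genes of the pathway and of signals that act on it. Of 5 genes of the activating arm followed here (Arntl, Clock, Npas2, Rora and Rorb), 0 were called with AP20187 in DMM by edgeR or DESeq2, and 0 had an unadjusted p under 0.05. In naive mice edgeR called 0 of the 5, of which 1 had an unadjusted p under 0.05, and DESeq2 called 1, Arntl. Arntl was at 6.29, 3.95, 5.95, 3.77 and 5.01 CPM in DMM mice 58 to 62 and at 3.90, 3.01, 5.84, 4.05 and 8.51 CPM in vehicle mice 32, 33, 34, 63 and 64. The groups overlapped fully, and the log2 fold change of -0.02 (adjusted p 0.968 by edgeR) turned positive without mouse 59, 61, 34 or 64 (0.05, 0.07, 0.04 and 0.25). In naive mice Arntl was at 5.02, 7.25, 6.05 and 5.05 CPM with AP20187 and at 2.78, 3.42, 4.72, 3.32 and 2.45 CPM with vehicle, which do not overlap. Its log2 fold change there was 0.81 (adjusted p 0.0706 by edgeR), and it passed without DMM vehicle mouse 64 (0.81, adjusted p 0.0343), which enters through the shared spread, without naive vehicle mouse 3 (0.96, adjusted p 0.0428) and with only the groups compared in the fit (0.84, adjusted p 0.0466). Clock had log2 fold changes of -0.29 in DMM and -0.34 in naive mice, and Npas2 of -0.51 and -0.20, with adjusted p of 0.339 to 0.757 by edgeR. In DMM, Clock was -0.62 (adjusted p 0.0109) against vehicle mice 32 to 34 and at 0.44 (adjusted p 0.242) against mice 63 and 64.

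Among other repressors and outputs (Hlf, Nfil3, Bhlhe40, Bhlhe41, Usp2 and Wee1), 3 of 6 passed in DMM and 2 of 6 in naive mice by edgeR, where 23.8% and 11.2% of all genes passed. Nfil3 encodes a repressor that competes with DBP and TEF at D-boxes and is itself repressed by REV-ERB. It was at 24.4, 21.1, 20.8, 16.8 and 22.5 CPM in DMM mice 58 to 62 and at 4.66, 4.61, 4.83, 7.28 and 11.3 CPM in vehicle mice 32, 33, 34, 63 and 64. In naive mice it was at 21.0, 24.3, 16.7 and 17.0 CPM with AP20187 and at 4.14 to 7.58 CPM with vehicle. Every AP20187 mouse lay above every vehicle mouse, with log2 fold changes of 1.69 in DMM and 1.88 in naive mice (adjusted p 0.00031 and 0.000317 by edgeR). Bhlhe41, which encodes an E-box repressor, was at 8.12 to 16.8 CPM with AP20187 against 22.6 to 33.4 CPM with vehicle in DMM, and at 10.6 to 27.0 CPM against 31.6 to 45.1 CPM in naive mice. These groups did not overlap either, with log2 fold changes of -1.33 and -0.85 (adjusted p 0.00118 and 0.0365 by edgeR). The call of Bhlhe41 in naive mice was lost without AP20187 mouse 1 or 3 or vehicle mouse 1, 2, 4 or 5, at -0.64 without AP20187 mouse 3 to -0.88 without vehicle mouse 2. Wee1, a cell cycle kinase gene, rose in DMM (0.61, adjusted p 0.021 by edgeR), a call lost without mouse 58 (0.53), 62 (0.48) or 33 (0.56).

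**Figure D4:**
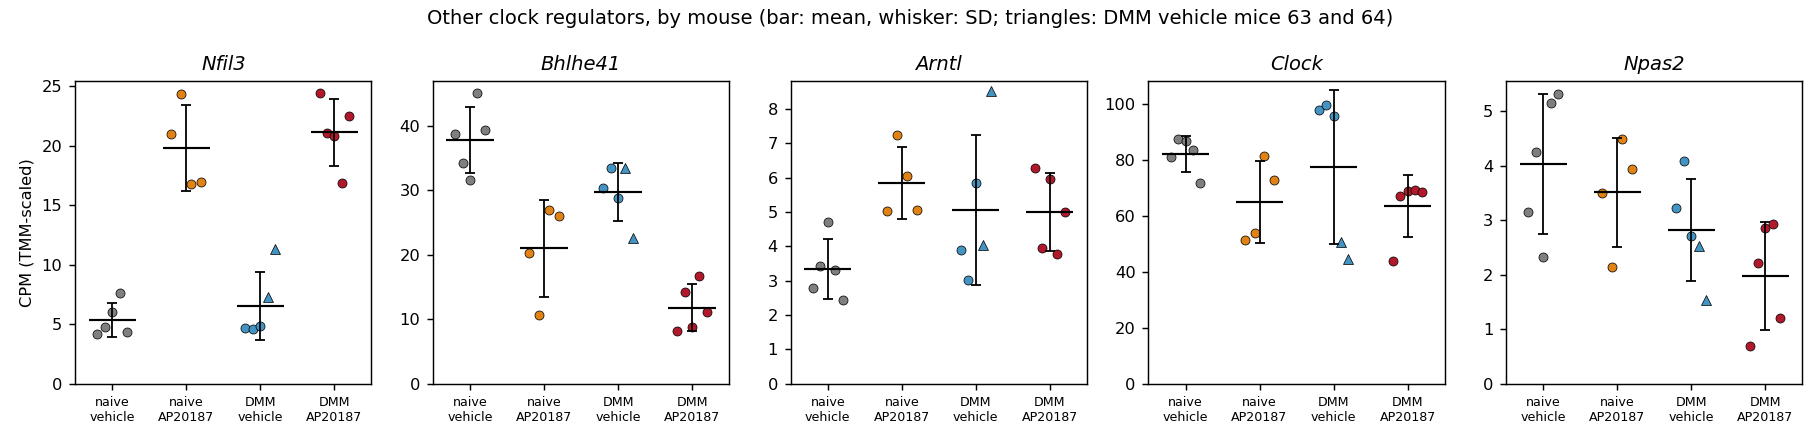
Level in CPM (vertical axes, from 0) of 5 other clock regulators in the 19 mice by group, with each point a mouse, the bar the mean and the whisker the SD. Nfil3 separates AP20187 from vehicle mice in DMM and naive mice alike (16.7 CPM or more against 11.3 CPM or less), whereas Arntl and Clock overlap in DMM.

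The edgeR counts in the next 3 lists stand against the same 23.8% of all genes called in DMM and 11.2% in naive mice. For DESeq2 the share of all genes is not given here. Of 7 genes for kinases and ubiquitin ligases that set the stability of PER and CRY, 2 were lower in DMM, Csnk1e (-0.50, adjusted p 0.0184 by edgeR) and Btrc (-0.87, adjusted p 0.0103), and 0 passed in naive mice by edgeR or DESeq2, where 3 had an unadjusted p under 0.05 by edgeR. The call of Csnk1e was lost without mouse 58 (-0.46) or 33 (-0.44). Per1 also answers to glucocorticoid hormone and to signals through CREB, so genes of those responses were counted. Of 11 glucocorticoid-responsive genes, 4 had a negative log2 fold change in DMM and 4 in naive mice. Of the 11, edgeR called 5 in DMM and 4 in naive mice, all higher. DESeq2 called the same genes and 1 more in each, both lower: Cdkn1a in DMM (log2 fold change -0.42, adjusted p 0.058 by edgeR) and Zbtb16 in naive mice (-1.16, adjusted p 0.0616 by edgeR). These 2 genes were named after their values were seen, as were Sgk1 and Pdk4. The calls of Sgk1 and Errfi1 in DMM and of Pdk4 in naive mice by edgeR were lost in 11, 20 and 13 settings. In those settings the log2 fold changes were 0.32 to 0.51, 0.40 to 0.60 and 0.53 to 0.84. Mt2 and Mt1, metallothionein genes that metals and inflammation induce too, rose by 1.31 and 1.07 log2 in DMM and by 1.93 and 1.40 log2 in naive mice (adjusted p 0.0042, 0.00852, 0.000881 and 0.00419 by edgeR). Fkbp5 was higher in DMM (0.95, adjusted p 0.00937) and not called in naive mice (0.19, adjusted p 0.636), and Errfi1 was higher in naive mice (1.00, adjusted p 0.00496). Of 9 immediate early genes, 4 were higher in DMM (Junb, Fos, Fosb and Ier2) and 1 in naive mice (Junb) by edgeR. DESeq2 called the same 4 in DMM and 2 in naive mice, Junb and Fos. Junb rose by 1.79 log2 in DMM and 1.08 log2 in naive mice (adjusted p 0.000464 and 0.0225 by edgeR), the latter lost without naive AP20187 mouse 1 or 3 (1.10 and 0.80) or vehicle mouse 1 or 2 (1.03 and 1.09). The naive call of Junb was also lost with limma on log2(FPKM + 1) and log2(FPKM + 0.1) (0.76 and 0.83). Fos rose by 1.70 log2 in DMM (adjusted p 0.0143 by edgeR), and its log2 fold change in naive mice was 1.42 (adjusted p 0.061 by edgeR). Fosb rose by 1.31 log2 (adjusted p 0.0329 by edgeR), a call lost without mouse 60, 62, 32, 33, 34 or 63, at 1.11 to 1.31 with adjusted p up to 0.0843. Ier2 rose by 1.43 log2 (adjusted p 0.0331 by edgeR), a call lost without mouse 58, 60, 62, 32, 33, 34 or 63, at 1.201 to 1.448 with adjusted p up to 0.076. Thra, the neighbour of Nr1d1, does not overlap it in the deposited coordinates, and fell by 1.07 log2 in DMM (adjusted p 0.00373 by edgeR). Against vehicle mice 63 and 64 only, the DMM calls of Wee1, Csnk1e, Btrc, Mt1, Mt2, Fkbp5, Sgk1, Errfi1, Fos, Fosb, Ier2 and Thra were lost, and those of Nfil3, Bhlhe41 and Junb were not. Those lost were at log2 fold changes of 0.53 (Wee1), -0.32 (Csnk1e), -0.49 (Btrc), 0.54 (Mt1), 0.95 (Mt2) and 0.77 (Fkbp5). The others lost were at 0.32 (Sgk1), 0.42 (Errfi1), 1.19 (Fos), 1.09 (Fosb), 0.55 (Ier2) and -0.87 (Thra).

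From mouse to mouse within the groups, Dbp, Nr1d1, Nr1d2 and Per3 rose and fell together, and Cry2 ran opposite to Dbp. Group means were removed from log2 CPM and 75 pairs were tested over 19 mice, by 100000 permutations within groups with Benjamini-Hochberg adjustment. Of 45 pairs among the clock genes, 13 had an adjusted p under 0.05 by Pearson's r, 11 of them positive, and 10 by Spearman's rho, and the median Pearson r was 0.35. The share of passing pairs among all genes was not computed. By r with Dbp, Nr1d2 ranked at 1299 and Per3 at 2016 of 14480 genes. The count is therefore not shown to be particular to clock genes. Dbp and Nr1d1 had r 0.91 and Spearman's rho 0.89 (permutation p 4e-05 and 2e-05, adjusted p 0.003 and 0.0015), and r 0.87 without the 2 mice farthest from the median of Dbp. Per3 and Nr1d2 had r 0.80 and rho 0.85 (permutation p 0.00031 and 0.00011, adjusted p 0.00775 and 0.00275), and r 0.86 without 2 such mice. Per1 and Per2 had r 0.74 and rho 0.72 (permutation p 0.00204 and 0.00146, adjusted p 0.0211 and 0.0156), and r 0.75 without 2 such mice. Cry1 had no pair past the threshold by either measure.

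Cry2 and Dbp had r -0.74 and rho -0.59 (permutation p 0.00099 and 0.0118, adjusted p 0.0149 and 0.0587), and r -0.72 without the 2 mice farthest from the median of Cry2. With group means kept, r of Cry2 and Dbp was 0.03, and that of Dbp and Nr1d1 was 0.89. Of 30 pairs with Arntl, Clock or Npas2, 7 passed by Pearson's r and 1 by Spearman's rho, Cry2 with Clock. Cry2 ran with Clock (r 0.69, rho 0.70, permutation p 0.0021 and 0.00054, adjusted p 0.0211 and 0.0101, r 0.60 without 2 mice), and Dbp ran against Clock (r -0.71, rho -0.64, permutation p 0.00921 and 0.0116, adjusted p 0.0406 and 0.0587, r -0.52 without 2 mice). Dbp and Arntl, which peak at opposite times of day in most tissues, had r 0.66 and rho 0.49 (permutation p 0.0154 and 0.0781, adjusted Pearson p 0.0525), and r 0.47 without 2 mice.

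**Figure D5:**
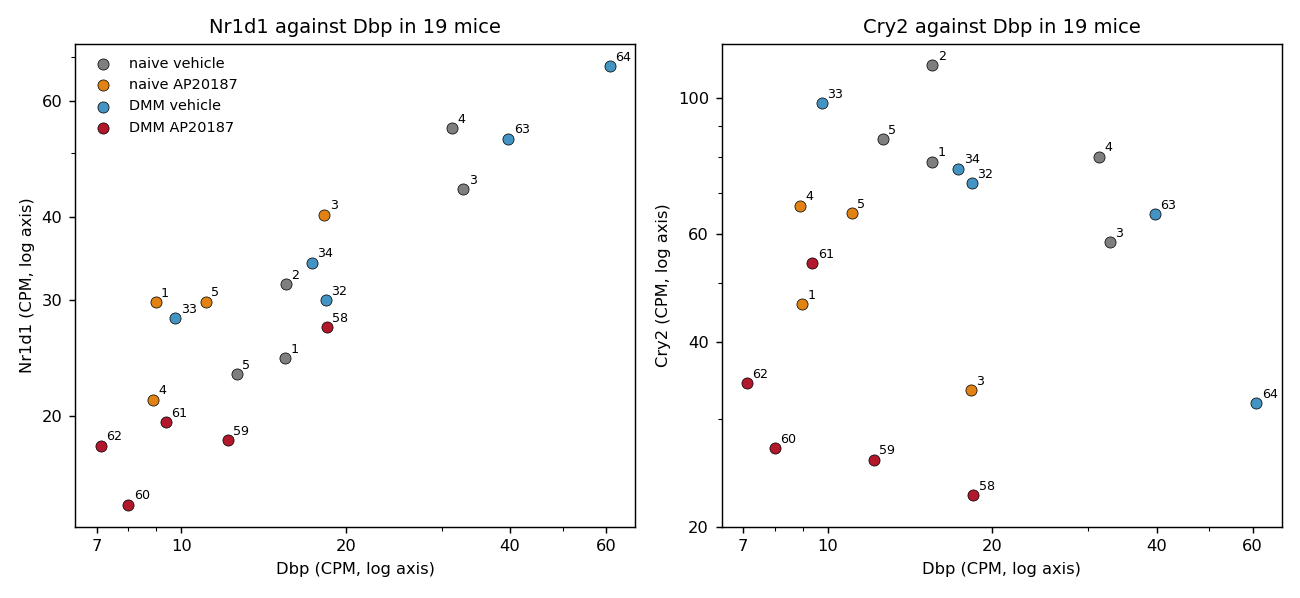
Nr1d1 (left) and Cry2 (right) against Dbp in the 19 mice, all in CPM on log axes, with colours for the 4 groups and mouse numbers beside the points. Nr1d1 rises with Dbp over all groups up to 67.9 CPM in DMM vehicle mouse 64, whereas in DMM vehicle mice Cry2 goes from 98.0 CPM in mouse 33, which has the lowest Dbp level, to 31.8 CPM in mouse 64, which has the highest.

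Markers of cell types also differed between the groups. Granulocyte and precursor markers summed to 16664 to 28783 CPM over 10 genes in DMM with AP20187 and to 369 to 7280 CPM with vehicle, and to 7942 to 27208 CPM and 768 to 2125 CPM in naive mice, and 9 and 10 of the 10 were higher with AP20187 by edgeR. Sensory neuron markers summed to 1052 to 4127 CPM in DMM with AP20187 and to 3207 to 7886 CPM with vehicle, with 5 of 7 lower by edgeR. In naive mice they summed to 1429 to 6993 CPM with AP20187 and to 4639 to 9523 CPM with vehicle, where edgeR called 0 of 7, with 1 at an unadjusted p under 0.05, and DESeq2 called 1. Early B lineage markers were lower with AP20187 in 6 of 7 genes in DMM and 5 of 7 in naive mice, and 4 of 4 proliferation genes were higher in each. The 4 fibroblast markers summed to 1417 to 5598 CPM with AP20187 against 946 to 5826 CPM with vehicle in DMM, and to 2536 to 5165 CPM against 683 to 3632 CPM in naive mice. Of these 4 genes 0 were called and 0 had an unadjusted p under 0.05 by edgeR, and DESeq2 called 0. Markers of macrophages, the cells the drug targets, summed over 8 genes to 223 to 952 CPM with AP20187 against 147 to 605 CPM with vehicle in DMM, and to 437 to 736 CPM against 79.1 to 442 CPM in naive mice, with 1 and 2 of the 8 higher by edgeR. Schwann cell markers were lower in 2 of 5 genes in DMM (1625 to 4746 CPM against 3070 to 5225 CPM), and erythroid markers in 2 of 4 (862 to 3566 CPM against 1049 to 17681 CPM). Skeletal muscle markers summed to 782 to 1346 CPM with AP20187 against 7.56 to 268 CPM with vehicle in naive mice, with 1 of 4 higher, and to 11.9 to 104 CPM against 8.85 to 1178 CPM in DMM. In satellite glia 1 of 5 markers was lower in DMM and 1 of 5 in naive mice, in endothelium 1 of 4 was higher in DMM, and in central glia 1 of 5 was lower in naive mice. In naive mice edgeR called 0 of the 4 endothelial markers, but all 4 had an unadjusted p under 0.05 and the median log2 fold change was 1.04, against 0.68 in DMM. DESeq2 called 2 of these 4 there, 4 and 5 of 8 macrophage markers in DMM and naive mice, 4 of 4 erythroid markers in DMM, and 3 and 4 of 4 muscle markers in DMM and naive mice. Over all genes edgeR called 23.8% in DMM and 11.2% in naive mice. The shares for DESeq2 are not given here, so its marker counts have no matching background. No marker of these lists was at 0 in any group.

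Within groups, 30 pairs of a clock gene and the summed level of neuron, fibroblast or granulocyte markers were tested in the same way, a family added after the data had been seen. By Pearson's r, 3 clock genes had an adjusted p under 0.05 with the neuron markers, 5 with the fibroblast markers and 6 with the granulocyte markers, and by Spearman's rho 3, 5 and 3. The share of all genes that would pass with these markers was not computed. The counts are therefore not shown to be particular to clock genes. Adjusted p in this family are those of Pearson's r unless named. Cry2 ran with the neuron markers (r 0.84, rho 0.85, permutation p 3e-05 and 6e-05, adjusted p 0.00045, r 0.85 without the 2 farthest mice). Dbp ran against them (r -0.71, rho -0.56, permutation p 0.00022 and 0.0103, adjusted p 0.00165, r -0.67 without 2 mice), as did Nr1d1 (r -0.67, rho -0.58, permutation p 0.00111 and 0.0107, adjusted p 0.00555, r -0.61 without 2 mice). Dbp ran with the fibroblast markers (r 0.88, rho 0.86, permutation p 1e-05, the smallest these permutations can give, and 0.00041, adjusted p 0.0003, r 0.83 without 2 mice), and Nr1d1 did so with r 0.70 (rho 0.68, permutation p 0.00504 and 0.00543, adjusted p 0.0151, r 0.59 without 2 mice). Nr1d2 (r 0.70) and Per3 (r 0.59) ran with them too (rho 0.66 and 0.59, Pearson permutation p 0.00243 and 0.0106, adjusted p 0.0101 and 0.0278, r 0.61 and 0.55 without 2 mice). Cry2 ran against the fibroblast markers (r -0.82, rho -0.80, permutation p 7e-05 and 9e-05, adjusted p 0.0007, r -0.74 without 2 mice).

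With the granulocyte markers, Nr1d1 had r 0.76 (rho 0.74, permutation p 0.00079 and 0.00401, adjusted p 0.00474, r 0.70 without 2 mice) and Dbp r 0.71 (rho 0.60, permutation p 0.0111 and 0.0204, adjusted p 0.0278 and by Spearman 0.051, r 0.65 without 2 mice). Both genes were lower with AP20187 in DMM while these markers were higher, so the sign within groups was opposite to that between them. Cry1 ran with the granulocyte markers (r 0.66, rho 0.65, permutation p 0.00269 and 0.00841, adjusted p 0.0101, r 0.59 without 2 mice). Cry2 ran against them (r -0.68, rho -0.64, permutation p 0.00384 and 0.00625, adjusted p 0.0128, r -0.62 without 2 mice), and for Cry1 and Cry2 the sign was that of the difference between the groups. Per2 (r 0.44) and Per3 (r 0.50) each had an adjusted Pearson p of 0.0491, and adjusted Spearman p of 0.0866 and 0.0556. Per1, Tef and Ciart had no pair past the threshold in this family. In DMM vehicle mice 63 and 64, several lists stood above their level in mice 32 to 34. Fibroblast markers summed to 3792 and 5826 CPM against 946 to 1752 CPM, granulocyte markers to 2507 and 7280 CPM against 369 to 1917 CPM, erythroid markers to 7569 and 17681 CPM against 1049 to 4475 CPM, and macrophage markers to 362 and 605 CPM against 147 to 200.01 CPM. The part of cell make-up in the AP20187 differences of the clock genes was not tested, nor was that of the hour of collection.

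The genes whose pattern was most like that of Dbp over the 19 mice, by r within groups among 14480 genes, were Slc39a1 (0.96), Cdc42ep4 (0.95), Il11ra1 (0.95), Rab34 (0.95) and Igfbp7 (0.95), none of them a clock gene. Nr1d1 ranked at 84, Nr1d2 at 1299, Per3 at 2016 and Cry2 at 12858. With group means kept, r with Dbp was -0.03 for Slc39a1, 0.64 for Cdc42ep4, 0.42 for Il11ra1, 0.52 for Rab34 and 0.06 for Igfbp7, and 0.89 for Nr1d1.

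Levels per gene length, in the deposited FPKM, set the order of the clock genes within a group. In naive vehicle mice Tef (14.6 ± 2.13 FPKM, SD, n = 5) and Nr1d2 (14.6 ± 2.94) were highest, followed by Cry2 (12.8 ± 2.76), Nr1d1 (11.3 ± 4.38), Per1 (7.42 ± 2.04), Dbp (7.07 ± 3.28), Cry1 (3.99 ± 0.43), Per2 (3.22 ± 1.499), Per3 (2.27 ± 0.811) and Ciart (1.70 ± 0.642). The ranges of all neighbours in that order overlapped. In DMM mice with AP20187 Nr1d2 (10.7 ± 2.22 FPKM, SD, n = 5) and Tef (8.76 ± 1.78) were still highest. Cry1 (6.99 ± 0.903) stood at rank 3 there, against rank 7 in naive vehicle and DMM vehicle mice and rank 6 in naive mice with AP20187. Cry2 (4.99 ± 1.87) stood at rank 6, and the ranges of Per3 (1.76 ± 0.345) and Ciart (0.675 ± 0.253) did not overlap.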

How the data were processed

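Poly(A) libraries of dorsal root ganglia from 19 mice were made with a stranded kit, per the labels' protocols. The submitters' processing notes name cutadapt, HISAT2, StringTie and GRCm39, with no version or role. For each gene the authors deposited counts, which are whole numbers and not normalized, and FPKM, a value per kilobase of gene and per library size. Counts gave the main results, and FPKM gave levels between genes and alternatives. Whether counting used strand is not given in the sources used here.

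The test was edgeR's quasi-likelihood F test (version 4.0.16, R 4.3.3), two-sided, with TMM and filterByExpr (minimum count 10). A model of 4 groups was fitted to all 19 libraries (15 residual degrees of freedom), and p-values were adjusted by Benjamini-Hochberg over 22778 genes in each of 5 contrasts. Alternatives were other scaling, no filter, only the groups compared, DESeq2 1.42.0, limma 3.58.1 on log2(FPKM + 1) or log2(FPKM + 0.1), each library left out, a replicate block in naive mice, and DMM vehicle mice of 1 number series. No 2 libraries of a group agreed within counting noise (smallest chi-square per degree of freedom 47.7). Correlations used log2 CPM with a prior count of 2. The labels do not say that mice came from separate litters or cages, so p-values measure the spread between these samples.

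The clock genes, pathway lists, markers and tests were chosen with earlier results of these data known. Named beside the 10 clock genes were Arntl, Clock, Npas2, Thra, other pathway genes that passed in a contrast (1 gene of the activating list is not reported here, and its counts leave it out; at most 4 each of the glucocorticoid and immediate early lists, by smallest p), and the 5 genes most like Dbp with a mean of at least 1 CPM.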

Additional observations from a re-analysis of the deposited data

Results flagged for a closer look

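Of 40 combinations of a clock gene and a group, 2 held a mouse whose gap to its nearest neighbour, as a share of the group's range, was past the 95% limit of Dixon's test, a limit that chance passes in about 1 in 20 groups. Per2 was at 34.8 CPM in naive vehicle mouse 4, against 18.3 CPM in the next mouse, a gap of 0.782 of the range. Per1 and Per3 were highest in the same mouse. Ciart was at 2.94 CPM in DMM AP20187 mouse 62, against 1.51 CPM in the next mouse, a gap of 0.809 of the range.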

How the results depend on the processing

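The AP20187 calls among the clock genes in DMM numbered 7, and 5 to 7 with each library left out. They numbered 3 against DMM vehicle mice 63 and 64 only and 4 against mice 32 to 34 only. With only the groups compared in the fit the number was 5, and with limma on log2(FPKM + 1) it was 6. In naive mice, where edgeR called 0, DESeq2 called 3 and limma on log2(FPKM + 1) and log2(FPKM + 0.1) called 2 each. Between DMM and naive mice given AP20187, limma called 1 on each FPKM scale (Cry1). The causes of these differences were not tested. The shares of all genes called by DESeq2 or limma alone are not given here, so their counts have no matching background. The 7 called clock genes kept their direction under every alternative run.

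Values that changed sign were not called under the setting that turned them. For AP20187 in DMM, Arntl (-0.02) was at 0.0137 with RLE size factors, 0.0335 with only the groups compared, 0.2315 against mice 32 to 34, 0.0077 with DESeq2 and 0.0027 with limma on log2(FPKM + 0.1). Against mice 63 and 64, Per1 was at -0.0644, Per2 at -0.0429 and Clock at 0.4441. With each library left out, Arntl ran from -0.1584 to 0.2499, Per1 from -0.0159 to 0.1905 and Per2 from -0.0423 to 0.159. For DMM against naive mice under vehicle, Per3 was at 0.148 with mice 63 and 64, and with mice 32 to 34 Cry1 was at -0.0724, Nr1d1 at -0.2122, Nr1d2 at -0.0367, Ciart at -0.3112 and Dbp at -0.5093. With each library left out, Nr1d2 ran from -0.0024 to 0.1692, Per3 from -0.2236 to 0.101, Ciart from -0.1746 to 0.2216 and Dbp from -0.0188 to 0.6598. Under AP20187, Dbp was at 0.0064 by library size only, 0.0485 and 0.0524 with limma on the 2 FPKM scales, and -0.3658 to 0.1959 with each library left out.

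Over all genes, AP20187 calls numbered 5410 in DMM (1156 to 8450 over the alternatives, 3212 to 7677 with a library left out) and 2548 in naive mice (1793 to 4367, and 994 to 3452). DMM against naive calls numbered 160 under AP20187 (73 to 1220, and 43 to 269) and 0 under vehicle (0 to 541), and interaction calls 26 (13 to 237, and 12 to 57). With a replicate block on mouse number in naive mice, 0 clock genes and 2310 genes were called, Arntl passed (0.87, adjusted p 0.0495) and Junb did not (1.06, adjusted p 0.0635). Same-numbered naive mice correlated at -0.0822 to 0.301, and 1 of 4 AP20187 mice correlated best with its own number. With 4 pairs this check cannot decide whether a shared number marks a pairing. The median r among clock genes was 0.40 with group means kept and 0.32 without the 2 farthest mice. The lowest count of a clock gene in a library was 77, for Ciart, and an effect of depth on the calls was not tested.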
